A study of Mus musculus with 21 samples.

Results

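Early primitive ectoderm-like (EPL) cells of the mouse embryonic stem cell line D3 were compared with naive cells of the same line by RNA sequencing. The members were the 3 libraries labelled EPL cells and the 3 labelled naive cells in line D3, 6 of the 21 libraries of the series, and every gene of the deposited count table was considered. The EPL cells had been ground-state D3 cells, grown for 4 days in DMEM with 10% fetal bovine serum, 330 U/mL leukaemia inhibitory factor (LIF) and 400 µM L-proline. The naive cells had been ground-state D3 cells in DMEM with the same share of serum and 1000 U/mL LIF, from which the 2i inhibitors had been withdrawn 4 days earlier. Penicillin with streptomycin and β-mercaptoethanol were present in both media. LIF was lower and proline was added in the EPL medium at the same time, so the effects of the LIF dose and of proline cannot be told apart. Line D3 is 1 cell line derived from mouse blastocysts, and no label says that its numbered libraries are separate cultures. The p-values therefore measure only the spread between libraries of the same group, which may be technical. That spread was estimated over all 21 libraries of the series, not over the 6 compared here alone. Ground-state D3 libraries, and EPL and naive libraries of a further line, A2, treated in the same way, were used where stated, with 3 libraries per group.

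Mouse embryonic stem cells keep the naive state with the help of LIF, which binds the receptor pair LIFR and gp130, activates JAK kinases and leads to phosphorylated STAT3 entering the nucleus. STAT3 then drives genes such as Klf4, Tfcp2l1 and its own inhibitor Socs3. When the naive network is released, cells pass through a formative state marked by Otx2, Pou3f1, Fgf5 and the de novo DNA methyltransferases, before the primed state of the epiblast that surrounds implantation. EPL cells are a culture model of this step. L-proline enters through the amino acid transporter SNAT2, encoded by Slc38a2. A shortage of amino acids is read by the kinase GCN2, which then raises translation of the transcription factor ATF4. ATF4 drives amino acid synthesis and uptake genes.

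The EPL libraries held 15320599, 18666225 and 23490527 counts and the naive libraries 17743542, 18683783 and 18180408 counts. Levels are given as CPM, the usual depth-scaled count unit, computed on the effective library size by the TMM method. A gene was called where edgeR's quasi-likelihood test, fitted to all 21 libraries and with Benjamini-Hochberg adjustment across the 16575 genes that had enough counts, gave an adjusted p below 0.05. The first principal component of the 6 libraries took 68.9% of the variance and separated EPL from naive libraries. The second took 12.7%, and naive replicate 2 lay at -34.47 on it, apart from the other 5 libraries, which lay between -15.53 and 19.37. Relative to the other naive libraries, this library had more signal from genes with a short genomic span and less from long genes, with median log2 differences of 0.151 in the shortest of 5 equal groups of genes and -0.197 in the longest. EPL replicate 3 had a smaller tilt of the same direction against the other EPL libraries, at 0.070 and -0.103. The remaining libraries tilted the other way, most in naive replicate 1 (-0.090 and 0.139).

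The difference between the states was broad. Of the 16575 genes, 7439 (44.9%) were called, 4050 (24.4%) of them higher in EPL cells and 3389 (20.4%) lower. Called genes with a change of at least 2-fold numbered 1189 higher (7.17%) and 952 lower (5.74%). In 4536 genes (27.4%) every EPL library lay above every naive library, and in 3738 (22.6%) every EPL library lay below. The median log2 change over all genes was 0.016. Counts in the gene lists below are to be read against these shares, 24.4% higher and 20.4% lower. Counts with shares near these are not read as a result about the list. The lists share some genes, so their counts are not independent.

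All 6 libraries expressed the defining genes of mouse embryonic stem cells. Pou5f1, which encodes OCT4, stood at 982, 1082 and 1183 CPM in EPL libraries, against 1269, 1578 and 1346 CPM in naive libraries, and the log2 change was -0.37 ± 0.10 (SE; edgeR adjusted p = 0.00542). Sox2, the partner of OCT4 on DNA, stood at 340.2, 368 and 352 CPM in EPL libraries, against 437, 447 and 416 CPM in naive libraries (-0.29 ± 0.07; edgeR adjusted p = 0.00217). Both genes fell by a small amount, with no overlap between the groups. Nanog, the homeodomain factor of the naive and early epiblast network, fell further, to 181, 198 and 199 CPM in EPL libraries, against 415, 409 and 438 CPM in naive libraries (-1.13 ± 0.09; edgeR adjusted p = 8.19e-10). Zfp42, which encodes the naive marker REX1, fell to 468, 508 and 536 CPM in EPL libraries, against 1039, 1146 and 1057 CPM in naive libraries (-1.10 ± 0.09; edgeR adjusted p = 3.69e-09). In bulk RNA, fewer cells that express a gene and less RNA of it per cell cannot be told apart.

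**Figure D1:**
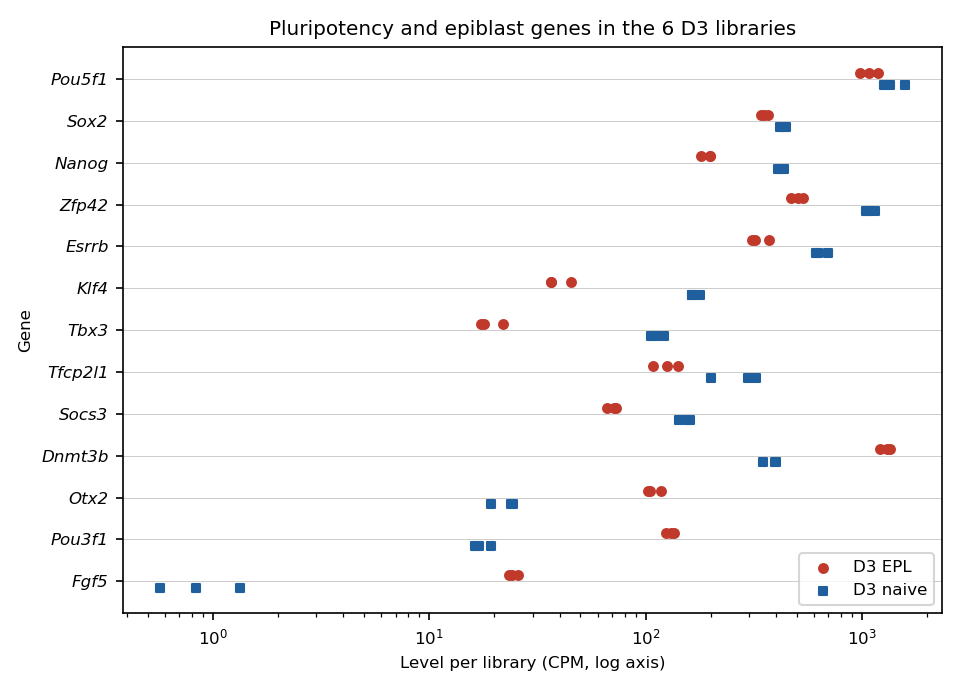
Level of 13 pluripotency and epiblast genes in each D3 library, in CPM on a log axis, with red circles for the 3 EPL libraries and blue squares for the 3 naive libraries. The Pou5f1 and Sox2 points lie close together between the groups, the points of Nanog, Zfp42, Esrrb, Klf4, Tbx3, Tfcp2l1 and Socs3 lie lower in EPL libraries, and those of Dnmt3b, Otx2, Pou3f1 and Fgf5 lie higher.

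The largest changes were taken from called genes with at least 5 CPM and no overlap between the groups, leaving out clones, predicted models and pseudogenes. The largest rise was in Fgf5 (chr5:98254184-98277030 on GRCm38), which encodes a fibroblast growth factor of the early epiblast. Its level was 23.3, 24.2 and 25.7 CPM in EPL libraries, against 0.572, 1.33 and 0.831 CPM in naive libraries, and the log2 change was 4.73 ± 0.28 (edgeR adjusted p = 2.13e-11). No EPL library came near the naive range. Spon1 (chr7:113765998-114043370), which encodes the secreted matrix protein F-spondin, stood at 10.5, 11.4 and 9.93 CPM in EPL libraries, against 0.457, 0.610 and 0.443 CPM in naive libraries (4.38 ± 0.21). Kif1a (chr1:93015464-93101951), a kinesin that carries synaptic vesicle precursors along axons, reached 101, 101 and 82.2 CPM in EPL libraries, against 6.29, 5.71 and 6.76 CPM in naive libraries (3.92 ± 0.28). Separation of the groups was a condition of this choice, so it is no further support for these genes. Other rises of this size were in Cnr1, the cannabinoid receptor (3.94 ± 0.36), Zfp608, a zinc finger gene (3.85 ± 0.21), Pxdc1 (3.80 ± 0.28), Mmp25, a membrane-anchored metalloproteinase (3.69 ± 0.14), Calcr, the calcitonin receptor (3.63 ± 0.24), Mal2, a protein of vesicle transport in epithelia (3.6 ± 0.30), Gabra3, a GABA receptor subunit (3.39 ± 0.32) and Rasef (3.36 ± 0.28). The edgeR adjusted p of these genes was at most 4.91e-08.

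The deepest fall under the same limits was in Inhbb (chr1:119415465-119422248), which encodes the βB subunit of activin B and inhibin B. It stood at 9.47, 9.16 and 7.45 CPM in EPL libraries, against 107, 95.4 and 106 CPM in naive libraries, and the log2 change was -3.58 ± 0.18 (edgeR adjusted p = 9.08e-13). In ground-state D3 libraries it was at 10.6, 8.55 and 8.21 CPM, so the EPL level lay near the level of the starting cells and the naive level stood above both. Adgrd1, an adhesion G protein-coupled receptor, was at 0.908, 1.08 and 1.03 CPM in EPL libraries, against 12.1, 11.4 and 12.8 CPM in naive libraries (-3.58 ± 0.19). Mapt, which encodes the microtubule protein tau, was at 2.27, 3.23 and 1.88 CPM in EPL libraries, against 24.1, 19.8 and 20.9 CPM in naive libraries (-3.14 ± 0.14). Separation of the groups was again a condition of the choice of these genes. Other falls of this size were in Apol6 (-3.51 ± 0.24), Myo1f, a class I myosin (-3.46 ± 0.16), Catip (-3.41 ± 0.35), Lonrf2 (-3.26 ± 0.24), Tril, a partner of Toll-like receptor 4 (-3.12 ± 0.25), Gsta3, a glutathione transferase (-3.11 ± 0.20) and Pirt (-2.94 ± 0.30), with edgeR adjusted p of at most 8.77e-08. The library kit does not mark strand, so reads of Apol6 and Mb, whose exons overlap, cannot be told apart, and Gsta3 has close paralogs among which reads can be split.

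Genes of the LIF and STAT3 pathway were lower in EPL cells or not called. Of 23 tested members, 0 were called higher and 16 lower, against 24.4% higher and 20.4% lower over all genes, and the median log2 change was -0.66. The median over all genes was 0.016. Without naive replicate 2, 1 member was called higher and 16 lower. Of 3 receptor genes 2 fell: Lifr, the LIF receptor, was at 67.2, 61.7 and 54.1 CPM in EPL libraries, against 103, 74.5 and 112 CPM in naive libraries (-0.66 ± 0.13; edgeR adjusted p = 3.90e-04), and Il6st, which encodes gp130, was at 62.2, 64.3 and 59.7 CPM in EPL libraries, against 85.8, 62.9 and 95.0 CPM in naive libraries (-0.39 ± 0.11; edgeR adjusted p = 0.00608). The Lifr groups did not overlap, whereas naive replicate 2 lay inside the EPL range of Il6st, whose edgeR adjusted p was 0.0534 without naive replicate 3. All 4 transducer genes of the list, Jak1, Stat3 and the kinases Pim1 and Pim3, were called lower. Stat3 itself stood at 110.0, 108 and 96.2 CPM in EPL libraries, against 140.1, 117 and 128 CPM in naive libraries, a log2 change of -0.29 ± 0.08 (edgeR adjusted p = 0.00365), and its exons overlap those of Stat5a.

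Socs3 (chr11:117966079-117970047, minus strand), the feedback inhibitor of the receptor complex, fell to 66.3, 73.1 and 71.3 CPM in EPL libraries, against 157, 160.0 and 142 CPM in naive libraries, with no overlap (-1.12 ± 0.12; edgeR adjusted p = 1.78e-07). Its promoter is shown because it holds the STAT element TTCNNNGAA, a palindromic letter pattern bound by STAT dimers, found here by searching both strands of the RefSeq promoter window (250 bases before to 50 after the start, GRCm38.p6). The stretch runs from base 194 to base 106 upstream of the start on the minus strand, chr11:117969472-117969560, and the capitals mark the match.
Socs3: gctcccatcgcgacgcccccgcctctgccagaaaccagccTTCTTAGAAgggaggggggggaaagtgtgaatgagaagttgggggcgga
The pattern was present in 9.55% of 27025 promoters and in 3 of the 19 list members with a promoter window (15.8%), which were Socs3, Icam1 and Cish. Socs3 and Icam1 were called lower, Icam1 with a log2 change of -0.23 (edgeR adjusted p = 0.00242), and Cish was not called (edgeR adjusted p = 0.382). A match describes the letters only.

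Of the 14 targets in the list, 9 were called lower and 0 higher. Klf4, a Krüppel-like factor of the naive network and a direct STAT3 target, fell to 36.4, 45.4 and 36.7 CPM in EPL libraries, against 178, 165 and 164 CPM in naive libraries (-2.10 ± 0.11; edgeR adjusted p = 1.75e-12). Bcl3, a nuclear IκB protein, fell to 26.4, 26.8 and 26.4 CPM in EPL libraries, against 83.0, 89.6 and 71.2 CPM in naive libraries (-1.61 ± 0.08; edgeR adjusted p = 2.70e-12). The groups were separate in both genes. Ccnd3, a D-type cyclin (-1.24 ± 0.07), Gbx2, a homeobox gene (-1.42 ± 0.14) and Tfcp2l1 (-1.13 ± 0.13) fell as well, with edgeR adjusted p of at most 5.42e-07.

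Naive pluripotency factors were lower, and Klf4, Klf5, Tfcp2l1 and Gbx2 are in this list and in the LIF list. Of 24 tested members, 21 (87.5%) were called lower and 1 (4.2%), Mycn, higher, with a median log2 change of -0.97. The transcription factors among them counted 13 lower and 1 higher of 15. Tbx3, a T-box repressor, fell to 17.2, 22 and 17.8 CPM in EPL libraries, against 121, 106 and 111 CPM in naive libraries (-2.57 ± 0.08; edgeR adjusted p = 3.77e-15), and its exons overlap the antisense gene Tbx3os1. Esrrb, an orphan nuclear receptor, fell to 312, 371 and 319 CPM in EPL libraries, against 693, 613 and 627 CPM in naive libraries (-0.95 ± 0.11; edgeR adjusted p = 3.29e-07). Tfcp2l1, a grainyhead-like factor, fell to 125, 141 and 108 CPM in EPL libraries, against 296, 199.9 and 323 CPM in naive libraries, and naive replicate 2 was the lowest of the naive libraries. Every EPL library lay below every naive library in these 3 genes.

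Further falls in the naive list were in Nr0b1, which encodes the nuclear receptor DAX1 (-1.40 ± 0.13), Nr5a2, a nuclear receptor that binds the Pou5f1 promoter (-1.11 ± 0.12), Klf2 (-0.96 ± 0.13), Klf5 (-0.90 ± 0.10), Prdm14, a repressor of methylation and FGF signalling genes (-1.45 ± 0.11), Tcl1, a coactivator of AKT (-1.61 ± 0.15), Eras, a constitutively active RAS (-1.32 ± 0.14) and Spp1, which encodes osteopontin (-2.04 ± 0.07), with edgeR adjusted p of at most 2.50e-06. Fgf4, the autocrine growth factor of embryonic stem cells, was not called, with 179.6, 175 and 186 CPM in EPL libraries, against 205, 199.6 and 215 CPM in naive libraries (edgeR adjusted p = 0.117).

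General pluripotency factors divided. Of 16, 3 were called higher and 8 lower, with a median of -0.22. Lin28b, a blocker of let-7 microRNA maturation, rose to 72.5, 74.4 and 57.6 CPM in EPL libraries, against 32.6, 26.7 and 35.0 CPM in naive libraries (1.11 ± 0.11; edgeR adjusted p = 5.90e-08), its paralog Lin28a rose by 0.39 ± 0.08, and Nr6a1, the germ cell nuclear factor that represses Pou5f1, rose by 1.03 ± 0.11, all on the log2 scale. Sall4, a zinc finger factor, fell (-0.47 ± 0.08; edgeR adjusted p of at most 2.87e-04 for Sall4, Lin28a and Nr6a1).

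Formative and early epiblast genes moved the other way. Of 24 tested, 18 (75%) were called higher and 3 (12.5%) lower (Foxd3, Nodal and Dnmt3l), with a median log2 change of 1.21. The transcription factors counted 11 higher and 1 lower of 13. Otx2, the homeodomain factor that redirects OCT4 to formative enhancers, rose to 105, 102 and 118 CPM in EPL libraries, against 19.2, 24.3 and 23.9 CPM in naive libraries (2.26 ± 0.11; edgeR adjusted p = 4.59e-13). Pou3f1, which encodes the POU factor OCT6, rose to 130.4, 135 and 124 CPM in EPL libraries, against 16.2, 19.2 and 16.9 CPM in naive libraries (2.90 ± 0.14; edgeR adjusted p = 4.59e-13). Sall2, a zinc finger factor, rose to 112, 103 and 95.4 CPM in EPL libraries, against 15.4, 13.5 and 15.7 CPM in naive libraries (2.80 ± 0.11; edgeR adjusted p = 2.60e-14). In each of the 3 genes every EPL library lay far above the naive range. Vrtn, the vertnin gene, rose by 2.59 ± 0.12 on the log2 scale (edgeR adjusted p = 4.82e-13), and its ground-state level of 0.355, 0.186 and 0.109 CPM was lower than in both other groups. Exons of Otx2 overlap those of Otx2os1, and exons of Pou3f1 those of Gm2164.

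Primed epiblast genes counted 10 higher (55.6%) and 2 lower (11.1%) of 18, with a median of 0.79. Without naive replicate 1 the count of lower genes was 1. Pim2, a serine/threonine kinase, rose to 323, 321 and 319.9 CPM in EPL libraries, against 39.2, 46.4 and 38.4 CPM in naive libraries (2.96 ± 0.12; edgeR adjusted p = 3.24e-14). Cldn6, a tight junction claudin, rose to 98.4, 106 and 95.6 CPM in EPL libraries, against 22.7, 30.9 and 26.7 CPM in naive libraries (1.90 ± 0.12; edgeR adjusted p = 9.38e-11). Car4, a carbonic anhydrase (2.37 ± 0.20), and Sfrp2, a secreted Wnt antagonist (1.35 ± 0.15), rose with edgeR adjusted p of at most 2.20e-07. Of the gastrulation genes, Evx1, a homeobox gene of the primitive streak, fell to 0.259, 0.377 and 0.514 CPM in EPL libraries, against 1.31, 1.61 and 2.38 CPM in naive libraries (-2.14 ± 0.41; edgeR adjusted p = 1.94e-04), and T, Eomes, Foxa2 and Mixl1 were not called. The Evx1 groups were separate at low levels, and its exons overlap those of Evx1os. T, which encodes brachyury, was at 0.324, 0.323 and 0.128 CPM in EPL libraries, against 0.743, 0.443 and 0.388 CPM in naive libraries, and Eomes at 3.31, 4.58 and 3.47 CPM in EPL libraries, against 3.03, 2.11 and 3.16 CPM in naive libraries (edgeR adjusted p = 0.103 and 0.0734).

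**Figure D2:**
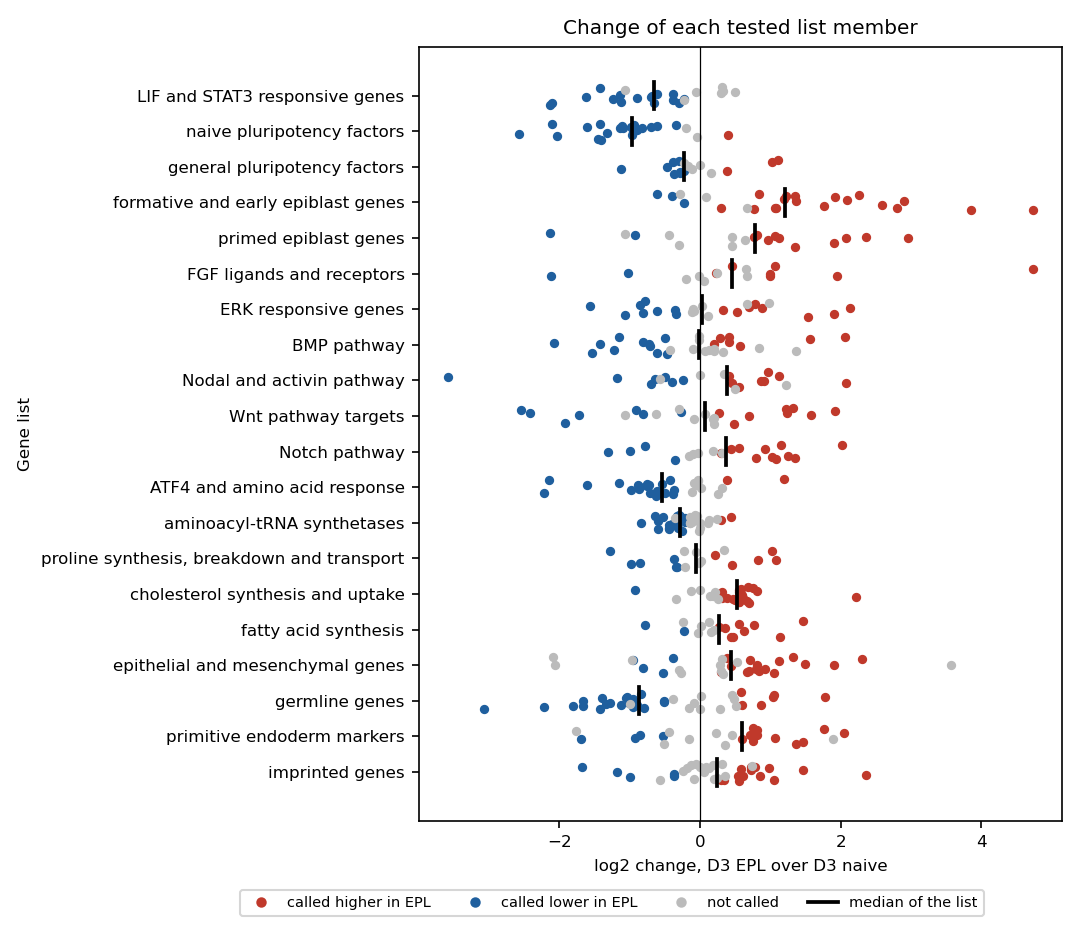
The log2 change of D3 EPL over D3 naive cells for every tested member of 20 gene lists, 1 point per gene, in red where called higher in EPL, in blue where called lower and in grey where not called, with a black bar at the median of each list. The medians of the LIF and STAT3 list (-0.66) and the naive list (-0.97) lie left of 0, and those of the formative list (1.21) and the primed list (0.79) lie right of it.

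Fibroblast growth factor genes counted 7 higher and 2 lower of 15, with a median of 0.46. Beside Fgf5, the ligand Fgf15 (1.06 ± 0.13) rose, as did Fgf13 (1.95 ± 0.22), an intracellular member of the family that is not a receptor ligand. Fgf17 fell to 18.3, 16.3 and 17.7 CPM in EPL libraries, against 72.7, 82.9 and 72.1 CPM in naive libraries (-2.12 ± 0.09; edgeR adjusted p = 1.70e-13). Fgf17 was at 2.79, 2.74 and 3.28 CPM in ground-state libraries, below both other groups. Of the 7 receptor genes of the list, 3 were called higher and 0 lower. Genes that respond to ERK, the kinase downstream of these receptors, counted 8 higher and 8 lower of 23, with a median of 0.03, and 6 higher and 9 lower without naive replicate 2.

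Of 9 genes of feedback inhibitors of ERK, 5 were called higher and 2 lower, with 4 higher without naive replicate 2, by the loss of Spry4. The log2 changes of the 9 ran from -0.81 to 2.13. Of 9 immediate early genes, 2 were called higher and 4 lower, with 1 higher when EPL replicate 1, naive replicate 2 or naive replicate 3 was left out, each time by the loss of Fosl1. Dusp4, a phosphatase of ERK, rose to 64.3, 65.0 and 69.7 CPM in EPL libraries, against 16.1, 15.6 and 13.7 CPM in naive libraries (2.13 ± 0.18; edgeR adjusted p = 4.31e-09). Dusp6, a cytoplasmic ERK phosphatase, rose to 132, 131 and 130.5 CPM in EPL libraries, against 83.9, 77.3 and 82.0 CPM in naive libraries (0.69 ± 0.06; edgeR adjusted p = 1.55e-08). Spred3 (1.53 ± 0.14) and Spry1 (0.88 ± 0.14), inhibitors of the RAS branch, rose as well (edgeR adjusted p of at most 2.32e-05). Among the immediate early genes, Jun, an AP-1 subunit, rose to 12.8, 14.9 and 12.5 CPM in EPL libraries, against 3.26, 3.66 and 3.82 CPM in naive libraries (1.90 ± 0.19; edgeR adjusted p = 5.41e-08), and Egr1, a zinc finger factor, fell to 39.7, 35.0 and 25.4 CPM in EPL libraries, against 63.2, 55.5 and 52.5 CPM in naive libraries (-0.78 ± 0.17; edgeR adjusted p = 7.05e-04). The ETS factor Etv4 (-1.07 ± 0.08) and Phlda1 (-1.56 ± 0.19) fell (edgeR adjusted p of at most 5.69e-07).

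Among the genes of bone morphogenetic protein (BMP) signalling, 7 of 29 were called higher and 11 lower, with a median of -0.01. The ligand Bmp4 fell to 31.3, 32.2 and 30.9 CPM in EPL libraries, against 70.2, 76.1 and 63.5 CPM in naive libraries, with no overlap (-1.15 ± 0.09; edgeR adjusted p = 1.03e-09). Of 5 receptor genes, 4 were called higher and 0 lower, and Bmpr1b rose by 2.05 ± 0.27 on the log2 scale (edgeR adjusted p = 2.10e-06). Of 7 targets, 6 were called lower and 1 higher. Id1, a dominant negative helix-loop-helix factor, fell to 83.4, 77.0 and 69.3 CPM in EPL libraries, against 124, 127 and 129 CPM in naive libraries (-0.73 ± 0.13), its relative Id3 fell to 15.5, 15.6 and 14.7 CPM in EPL libraries, against 44.8, 46.7 and 40.5 CPM in naive libraries (-1.53 ± 0.13), and Smad6, an inhibitory SMAD, fell by 1.41 ± 0.18 on the log2 scale (edgeR adjusted p of at most 1.37e-04). The called rise among targets was in Msx1, a homeobox gene (1.56 ± 0.32; edgeR adjusted p = 4.15e-04).

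Nodal and activin genes counted 8 higher and 7 lower of 20, with a median of 0.38. Of 4 ligands, 3 were called lower, among them Inhbb and Nodal itself, at 64.0, 54.5 and 58.0 CPM in EPL libraries, against 73.6, 81.4 and 76.5 CPM in naive libraries (-0.39 ± 0.07; edgeR adjusted p = 1.82e-04), and of 4 receptor genes 3 were called higher, among them Acvr2b (0.91 ± 0.19; edgeR adjusted p = 4.19e-04). Lefty1, a secreted Nodal inhibitor and target, rose to 162, 184 and 195 CPM in EPL libraries, against 70.9, 117 and 89.3 CPM in naive libraries (0.97 ± 0.28; edgeR adjusted p = 0.00726). Skil, a SMAD corepressor, rose to 252, 243 and 223 CPM in EPL libraries, against 114, 89.4 and 126 CPM in naive libraries (1.12 ± 0.10; edgeR adjusted p = 8.50e-09). Pmepa1, a feedback inhibitor of TGF-β signalling, fell by 1.19 ± 0.13 on the log2 scale (edgeR adjusted p = 1.57e-07).

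Wnt targets counted 8 higher and 7 lower of 23, with a median of 0.07. Sp5, a direct β-catenin target, fell to 0.778, 0.754 and 0.685 CPM in EPL libraries, against 3.77, 5.04 and 2.99 CPM in naive libraries (-2.41 ± 0.30; edgeR adjusted p = 1.11e-06), and Notum, an enzyme that inactivates Wnt ligands, fell to 21.1, 17.7 and 20.5 CPM in EPL libraries, against 63.8, 70.6 and 60.9 CPM in naive libraries (-1.72 ± 0.15; edgeR adjusted p = 6.84e-09). Lef1, a DNA-binding partner of β-catenin, rose to 25.8, 23.8 and 23.8 CPM in EPL libraries, against 5.83, 7.42 and 6.09 CPM in naive libraries (1.92 ± 0.20; edgeR adjusted p = 1.25e-07). The shares of the Wnt list were 34.8% higher and 30.4% lower, against 24.4% and 20.4% over all genes. Notch genes counted 11 higher (55%) and 4 lower (20%) of 20, with a median of 0.38. The ligands Dll3 (2.02 ± 0.18), Jag2 (1.25 ± 0.12) and Dll1 (1.08 ± 0.13), the receptor Notch3 (1.35 ± 0.12) and the target gene family member Hes6 (1.15 ± 0.13) rose, and the receptor Notch4 fell (-1.31 ± 0.22; edgeR adjusted p of at most 5.64e-05 for these 6 genes).

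Genes of the amino acid response driven by ATF4 were mostly lower in EPL cells, whose medium had both less LIF and added proline. Of 29 tested members, 2 (6.9%) were called higher and 19 (65.5%) lower, against 24.4% and 20.4% over all genes, with a median log2 change of -0.54. Atf4 (chr15:80255184-80257541) fell to 134, 149.9 and 157 CPM in EPL libraries, against 234, 252 and 239 CPM in naive libraries (-0.72 ± 0.07; edgeR adjusted p = 4.36e-08). Its relative Atf5 fell to 13.4, 12.1 and 12.8 CPM in EPL libraries, against 58.9, 58.1 and 52.0 CPM in naive libraries (-2.14 ± 0.08; edgeR adjusted p = 2.60e-14). Nupr1, a stress-induced chromatin protein, fell to 1.62, 2.15 and 2.40 CPM in EPL libraries, against 10.6, 11.6 and 7.09 CPM in naive libraries (-2.22 ± 0.20; edgeR adjusted p = 1.35e-08). EPL and naive libraries did not overlap in any of the 3 genes.

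Enzymes and regulators in the list were lower as well. Asns, asparagine synthetase, fell to 147, 155 and 169 CPM in EPL libraries, against 353, 379 and 313 CPM in naive libraries (-1.15 ± 0.08; edgeR adjusted p = 1.82e-10). Cth, cystathionine γ-lyase of cysteine synthesis, fell to 47.3, 45.8 and 52.2 CPM in EPL libraries, against 147, 153 and 143 CPM in naive libraries (-1.60 ± 0.07; edgeR adjusted p = 3.17e-13). Trib3, a pseudokinase that feeds back on ATF4, fell to 25.2, 22.8 and 28.6 CPM in EPL libraries, against 51.1, 46.4 and 43.1 CPM in naive libraries (-0.87 ± 0.11; edgeR adjusted p = 1.28e-06). All 3 were below every naive library in every EPL library. The subunits of the large neutral amino acid exchanger fell less, Slc7a5 (-0.42 ± 0.08) and Slc3a2 (-0.50 ± 0.07) (edgeR adjusted p of at most 1.38e-04). Ddit4, an inhibitor of mTORC1 that hypoxia also induces, was 1 of the 2 members called higher, at 103, 112 and 122 CPM in EPL libraries, against 44.1, 55.6 and 48.2 CPM in naive libraries (1.19 ± 0.11; edgeR adjusted p = 1.98e-08). Slc7a11, the cystine transporter, was not called, at 9.47, 9.48 and 13.6 CPM in EPL libraries, against 8.98, 9.97 and 7.37 CPM in naive libraries (edgeR adjusted p = 0.154).

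Promoters of 4 list members are shown because they hold the CARE element TGATGNAA, the composite site of C/EBP and ATF factors, which was searched on both strands of the same windows. Nupr1, Pycr1 and Asns were called lower and Slc7a11 was not. The stretches are on the minus strand of GRCm38.p6, chr7:126625533-126625620 for Nupr1, chr11:120643804-120643891 for Pycr1, chr6:7693210-7693272 for Asns and chr3:50443614-50443719 for Slc7a11, all upstream of the start, with each match in capitals (TTGCATCA is the pattern read on the other strand).
Nupr1: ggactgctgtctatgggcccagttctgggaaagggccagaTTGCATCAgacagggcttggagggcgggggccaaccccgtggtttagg
Pycr1: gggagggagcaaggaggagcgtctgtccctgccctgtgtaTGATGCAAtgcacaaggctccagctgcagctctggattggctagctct
Asns: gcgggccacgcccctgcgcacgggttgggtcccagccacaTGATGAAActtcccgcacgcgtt
Slc7a11: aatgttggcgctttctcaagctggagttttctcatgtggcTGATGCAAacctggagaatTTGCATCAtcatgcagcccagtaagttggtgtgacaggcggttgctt
The pattern was present in 4.51% of 27025 promoters and in 9 of the 26 list members with a window (34.6%). Of these 9 genes, Nupr1, Pycr1, Asns and Trib3 were called lower, Slc7a11, Chac1, Atf3 and Vldlr were not called, and Fgf21 was not tested. The letters of TGATGCAA can run into the octamer ATGCAAAT, which was present in 1.97% of promoters and in 1 of 15 formative genes, Dll1. The sterol element TCACNCCAC was present in 1.44% of promoters and in 1 of 20 cholesterol genes, Hmgcs1.

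Aminoacyl-tRNA synthetases, which charge tRNAs with amino acids, counted 2 higher (5.4%) and 21 lower (56.8%) of 37, with a median of -0.28. The cytosolic enzymes counted 0 higher and 15 lower of 20, and the mitochondrial enzymes 2 higher and 6 lower of 17. Cars, the cysteine enzyme, fell to 127, 129 and 129 CPM in EPL libraries, against 236, 232 and 220.2 CPM in naive libraries (-0.84 ± 0.05; edgeR adjusted p = 6.85e-11). Sars, the serine enzyme, fell to 249, 253 and 271 CPM in EPL libraries, against 384, 439.5 and 379 CPM in naive libraries (-0.64 ± 0.08; edgeR adjusted p = 7.43e-07). Aars (-0.60 ± 0.07), Yars (-0.60 ± 0.07) and Gars (-0.52 ± 0.07) fell by similar amounts, with edgeR adjusted p of at most 1.61e-06. The falls were small next to the changes of the naive factors and the groups did not overlap in these 5 genes.

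Genes of proline synthesis, breakdown and transport counted 5 higher (29.4%) and 6 lower (35.3%) of 17, against 24.4% and 20.4% of all tested genes. Of 5 synthesis genes, 1 was called higher and 3 lower, and without naive replicate 2 the counts were 2 higher and 2 lower. Aldh18a1, which makes the proline precursor from glutamate, fell to 52.5, 53.3 and 51.8 CPM in EPL libraries, against 101, 90.7 and 94.3 CPM in naive libraries (-0.86 ± 0.06; edgeR adjusted p = 3.75e-10). Pycr1, the last enzyme of the path in mitochondria, fell to 17.2, 19.9 and 23 CPM in EPL libraries, against 41.4, 43.2 and 34.9 CPM in naive libraries (-0.98 ± 0.13; edgeR adjusted p = 3.70e-06). Both were separate between the groups. Oat, ornithine aminotransferase, rose by 0.21 ± 0.07 on the log2 scale (edgeR adjusted p = 0.012), a call lost without EPL replicate 2 (0.0608) or naive replicate 1 (0.058). The gene of the first breakdown step, Prodh, was not called, with 33.3, 27.2 and 30.1 CPM in EPL libraries, against 30.0, 31.1 and 32.9 CPM in naive libraries (-0.05 ± 0.09; edgeR adjusted p = 0.643).

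Of 9 transporter genes that carry proline, 4 were called higher and 2 lower. Slc38a2 (chr15:96687392-96699730), which encodes SNAT2, rose to 643, 567 and 536 CPM in EPL libraries, against 339, 289 and 359 CPM in naive libraries (0.82 ± 0.10; edgeR adjusted p = 8.50e-07). Slc6a15, a sodium-dependent transporter of branched-chain amino acids and proline, rose to 43.2, 42.1 and 41.3 CPM in EPL libraries, against 18.6, 19 and 22.4 CPM in naive libraries (1.07 ± 0.12; edgeR adjusted p = 2.40e-07). Slc36a4 rose by 1.03 ± 0.25, and Slc6a7, a proline transporter of neurons, fell by 1.28 ± 0.36, at levels of at most 3.89 CPM in any D3 library of the comparison (edgeR adjusted p of at most 0.00637).

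In the list of serine, glycine, folate and methionine genes, those of serine synthesis counted 0 higher and 4 lower of 5. Phgdh and Cth of this list, and Pycr1 of the proline list, are in the ATF4 list as well. Psat1, the transaminase of the path, fell to 338, 355 and 380.0 CPM in EPL libraries, against 587, 619.7 and 594 CPM in naive libraries (-0.75 ± 0.08), Psph, its phosphatase, fell by 0.88 ± 0.13, and Shmt2, which converts serine to glycine in mitochondria, fell by 0.75 ± 0.09 (edgeR adjusted p of at most 1.30e-05). Gldc, of the glycine cleavage system, rose to 425, 437 and 409.9 CPM in EPL libraries, against 282, 278 and 268 CPM in naive libraries (0.62 ± 0.09; edgeR adjusted p = 7.92e-06), and Tdh, threonine dehydrogenase, on which mouse embryonic stem cells depend, fell to 472, 499 and 523 CPM in EPL libraries, against 569, 713 and 615 CPM in naive libraries (-0.35 ± 0.08; edgeR adjusted p = 0.0013). The arginine and lysine transporter Slc7a1 fell by 1.12 ± 0.14, while Slc7a2 of the same family rose by 1.24 ± 0.22 and Slc1a3, a glutamate transporter, rose by 1.07 ± 0.10 (edgeR adjusted p of at most 7.21e-05).

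Prolyl hydroxylases and other enzymes that use 2-oxoglutarate counted 8 higher and 7 lower of 27, with a median of -0.09. P3h2, a collagen prolyl 3-hydroxylase, rose to 1.30, 1.40 and 1.58 CPM in EPL libraries, against 0.172, 0.222 and 0 CPM in naive libraries (3.40 ± 0.54, or 3.99 without naive replicate 2; edgeR adjusted p = 2.38e-05). P4ha2, a collagen prolyl 4-hydroxylase subunit, rose by 0.86 ± 0.16 and P3h4, a noncatalytic relative, fell by 0.94 ± 0.13 on the log2 scale (edgeR adjusted p of at most 1.81e-04).

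Of the 3 tested genes of de novo DNA methylation, which are also in the formative list, 2 rose and 1 fell. Dnmt3b rose to 1354, 1308 and 1216 CPM in EPL libraries, against 399, 349 and 395 CPM in naive libraries (1.76 ± 0.08; edgeR adjusted p = 4.59e-13), and Dnmt3a rose to 374, 356 and 361 CPM in EPL libraries, against 233, 197 and 209.7 CPM in naive libraries (0.77 ± 0.07; edgeR adjusted p = 1.67e-08). Dnmt3l, their catalytically inactive cofactor, fell to 433, 417 and 401 CPM in EPL libraries, against 478, 531 and 460.2 CPM in naive libraries (-0.23 ± 0.08; edgeR adjusted p = 0.0287). The groups were separate in all 3 genes, and the Dnmt3l call was lost without EPL replicate 2 (edgeR adjusted p = 0.0569), EPL replicate 3 (0.0733) or naive replicate 2 (0.128). Of the TET enzymes, which oxidise methylcytosine, Tet2 fell to 77.4, 80.4 and 61.9 CPM in EPL libraries, against 181, 102 and 214 CPM in naive libraries (-1.18 ± 0.19; edgeR adjusted p = 2.57e-05), Tet1 fell by 0.64 ± 0.20 with overlap between the groups (edgeR adjusted p = 0.0106, 0.0647 without EPL replicate 3 and 0.0757 without naive replicate 3), and Tet3 rose by 0.83 ± 0.14 (edgeR adjusted p = 3.63e-05). Over the whole list, 6 of 16 genes were called higher and 3 lower, and without EPL replicate 3 the count of lower genes was 1. In the Polycomb list, the 11 genes of complex 2 counted 1 higher (Ezh1, lost without naive replicate 2) and 6 lower, led by Epop, an accessory subunit, at 248, 272 and 237 CPM in EPL libraries, against 507, 592 and 458 CPM in naive libraries (-1.04 ± 0.10; edgeR adjusted p = 4.56e-08).

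Cholesterol genes were mostly higher. Of 28 tested genes of synthesis and uptake, 20 (71.4%) were called higher and 1 (3.6%) lower, with a median of 0.52. Hmgcs1, an early synthase of the pathway, rose to 291, 317 and 309 CPM in EPL libraries, against 209, 198 and 218 CPM in naive libraries (0.55 ± 0.10; edgeR adjusted p = 1.40e-04). Every EPL library lay above every naive library in this gene. Cyp51 (0.81 ± 0.13), Fdps (0.75 ± 0.17), Dhcr7 (0.68 ± 0.15) and the sterol sensor Insig1 (0.70 ± 0.19) rose as well, and the gene called lower was Ebp, a sterol isomerase (-0.93 ± 0.12; edgeR adjusted p of at most 0.00498 for these 5 genes). Fatty acid synthesis genes counted 9 higher and 2 lower of 17, among them the desaturases Fads2 (1.46 ± 0.11), Scd1 (1.13 ± 0.22) and Scd2 (0.76 ± 0.20; edgeR adjusted p of at most 0.00332).

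Glycolysis genes counted 10 higher and 7 lower of 31, with a median of 0.10, and the count of higher genes was 6 without EPL replicate 2 and 6 without naive replicate 1. Slc16a3, the lactate exporter MCT4, rose to 288, 271 and 298 CPM in EPL libraries, against 90.2, 135 and 96.5 CPM in naive libraries (1.42 ± 0.32; edgeR adjusted p = 9.85e-04). Pfkl, a phosphofructokinase, rose to 525, 525 and 532 CPM in EPL libraries, against 230.5, 316 and 261 CPM in naive libraries (0.97 ± 0.18; edgeR adjusted p = 1.19e-04). Hk2, a hexokinase, fell to 196, 180.2 and 136 CPM in EPL libraries, against 351, 279 and 342 CPM in naive libraries (-0.92 ± 0.11; edgeR adjusted p = 1.06e-06), and Eno3, the muscle enolase, fell by 1.51 ± 0.10 (edgeR adjusted p = 1.63e-10). The shares of the glycolysis list, 32.3% higher and 22.6% lower, lay near the 24.4% and 20.4% over all genes. Hypoxia-inducible genes counted 7 higher (24.1%) and 6 lower (20.7%) of 29, with a median of 0.03, also near the shares over all genes.

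Genes of the respiratory chain encoded in the nucleus counted 0 higher and 25 lower of 77, with a median of -0.23, but this count moved with single libraries. It was 15 without EPL replicate 1, 16 without EPL replicate 2, 46 without EPL replicate 3, 49 without naive replicate 1 and 12 without naive replicate 2, and without the last 1 gene was called higher and the median was -0.08. Ndufb8, a complex I subunit, stood at 70.5, 74.2 and 92.3 CPM in EPL libraries, against 109, 155 and 139 CPM in naive libraries (-0.76 ± 0.15; edgeR adjusted p = 2.28e-04), and Cox5a, of complex IV, at 134, 134 and 155 CPM in EPL libraries, against 197, 267 and 194 CPM in naive libraries (-0.64 ± 0.11; edgeR adjusted p = 4.70e-05), and both were also called without naive replicate 2 (edgeR adjusted p = 0.00177 and 2.81e-04). The 13 genes encoded in mitochondrial DNA counted 0 higher and 3 lower, with 6 lower without naive replicate 1 and 7 without naive replicate 2. Mitochondrial transcripts made up 1.241% to 1.93% of the counts of EPL libraries and 1.527% to 2.355% of those of naive libraries.

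The log2 change followed genomic span. When the tested genes were split into 5 equal groups by genomic span, with median spans of 2263, 9304, 20211, 41597 and 117602 bases, the median log2 change was -0.103, -0.025, 0.009, 0.075 and 0.179. Without naive replicate 2 the medians were -0.027, 0.006, 0.011, 0.033 and 0.095. In line A2 they lay between -0.028 and 0.024. Genes of the cytosolic ribosome, which are short, counted 1 higher and 6 lower of 82 with all 6 libraries and 22 higher and 2 lower without naive replicate 2. Genes of the mitochondrial ribosome counted 2 higher and 41 lower of 76, and 4 higher and 17 lower without that library. Both ribosomal lists were chosen after their values had been seen. The translation factor Eef2, with 5631, 5547 and 5406 CPM in EPL libraries, against 3261, 3047 and 3091 CPM in naive libraries, rose in either case (0.82 ± 0.08; log2 change 0.80 without naive replicate 2; edgeR adjusted p = 4.61e-08 and 3.37e-07).

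**Figure D3:**
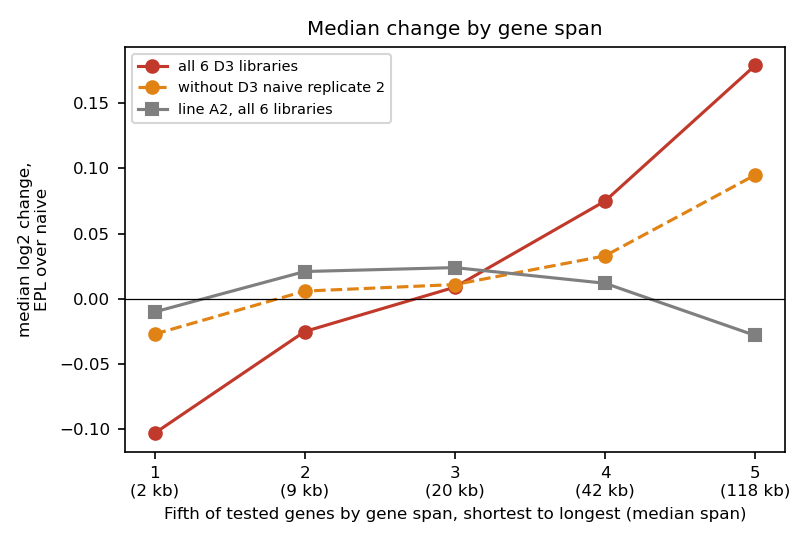
Median log2 change of EPL over naive cells in 5 equal groups of the tested genes ordered by genomic span, shortest to longest, for all 6 D3 libraries (red), for D3 without naive replicate 2 (orange, dashed) and for line A2 (grey). The red line climbs from -0.103 to 0.179, the orange line from -0.027 to 0.095, and the grey line stays between -0.028 and 0.024.

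Cell adhesion genes of epithelia were mostly higher in EPL cells. Of 19 epithelial genes, 15 (79%) were called higher and 1 (5.3%), Cldn4, lower. The Cldn4 call was lost when EPL replicate 1, EPL replicate 2 or naive replicate 2 was left out. Of 12 mesenchymal genes, 1 was called higher and 3 lower, with 2 higher without naive replicate 2, where Twist1 was added. Cdh1, which encodes E-cadherin, rose to 823, 799 and 725 CPM in EPL libraries, against 617, 516 and 597 CPM in naive libraries (0.44 ± 0.07; edgeR adjusted p = 5.42e-05). Epcam, an epithelial adhesion molecule, rose to 217, 210.5 and 227 CPM in EPL libraries, against 114, 147 and 116 CPM in naive libraries (0.80 ± 0.09; edgeR adjusted p = 1.39e-07). Cldn7, a claudin, rose to 28.3, 27.1 and 26.6 CPM in EPL libraries, against 5.03, 7.15 and 4.38 CPM in naive libraries (2.31 ± 0.21; edgeR adjusted p = 8.91e-09). All EPL libraries were above all naive libraries in these genes. Esrp1, an epithelial splicing factor (1.5 ± 0.09), Rab25 (1.06 ± 0.19) and Krt18, a keratin (1.12 ± 0.21), rose as well (edgeR adjusted p of at most 1.99e-04). Vim, the mesenchymal intermediate filament vimentin, fell to 155, 139 and 148 CPM in EPL libraries, against 270.4, 313 and 270.1 CPM in naive libraries (-0.95 ± 0.14; edgeR adjusted p = 9.41e-06), and the mesenchymal gene called higher was Cdh2, which encodes N-cadherin (1.33 ± 0.19; edgeR adjusted p = 7.72e-06).

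Extracellular matrix and integrin genes counted 12 higher and 17 lower of 43, and 7 were higher without naive replicate 3. The integrin genes counted 1 higher and 6 lower of 11, and the collagens 6 higher and 2 lower of 11. The collagens called higher were 3 without EPL replicate 2 and 2 without naive replicate 3, and those called lower were 0 without EPL replicate 3 and 1 without EPL replicate 2 or naive replicate 1. Itga9, an integrin α chain, fell to 12.4, 12.5 and 12.2 CPM in EPL libraries, against 51.2, 41.7 and 43.6 CPM in naive libraries (-1.88 ± 0.14; edgeR adjusted p = 6.19e-10), and Col4a1, of basement membrane collagen, rose to 69.6, 83.9 and 55.2 CPM in EPL libraries, against 48.0, 41.3 and 38.3 CPM in naive libraries (0.71 ± 0.20; edgeR adjusted p = 0.0071, or 0.0617 without EPL replicate 2). Targets of SRF and YAP, the factors that respond to the cytoskeleton, counted 8 higher and 3 lower of 26, and the count of higher genes was 4 without EPL replicate 2, 5 without naive replicate 1 and 4 without naive replicate 2.

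Germline genes were mostly lower, with 6 (15.8%) called higher and 22 (57.9%) lower of 38 and a median of -0.87. Tuba3a, a testis tubulin, fell to 9.01, 7.92 and 12 CPM in EPL libraries, against 29.5, 33.7 and 29.6 CPM in naive libraries (-1.67 ± 0.17; edgeR adjusted p = 6.45e-08), and reads can be split with its near copy Tuba3b. Sycp3, of the meiotic synaptonemal complex, rose to 5.19, 6.41 and 7.06 CPM in EPL libraries, against 2.52, 1.66 and 1.33 CPM in naive libraries (1.77 ± 0.26; edgeR adjusted p = 1.10e-05). Markers of 2-cell-like cells, a rare totipotent-like cell, summed to 32.71 to 39.62 CPM in EPL libraries and 35.41 to 55.11 CPM in naive libraries, and 2 of 19 tested members were called lower. Both were members of the Zscan4 cluster of near-identical copies, and without any 1 of EPL replicates 1, 2 and 3 or naive replicate 3 the count was 1.

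Imprinted genes counted 14 higher and 5 lower of 35, with a median of 0.24, and those expressed from the paternal allele counted 10 higher and 2 lower of 18. Magel2, a paternally expressed gene of the Prader-Willi region, rose to 14.9, 11 and 9.20 CPM in EPL libraries, against 2.17, 1.94 and 2.66 CPM in naive libraries (2.36 ± 0.23; edgeR adjusted p = 4.68e-08). Nnat, which encodes neuronatin, rose to 36.2, 39.2 and 39.2 CPM in EPL libraries, against 12.2, 17.2 and 12.4 CPM in naive libraries (1.46 ± 0.16; edgeR adjusted p = 2.50e-07). Cobl, an actin nucleator, fell to 74.2, 76.0 and 63.7 CPM in EPL libraries, against 257, 189 and 238 CPM in naive libraries (-1.68 ± 0.10; edgeR adjusted p = 2.32e-11). The 3 genes showed no overlap between EPL and naive libraries.

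Markers of other lineages were measured in full lists. Primitive endoderm markers counted 11 higher and 4 lower of 23, with 5 higher without EPL replicate 2, and their summed level was 1200 to 1405 CPM in EPL libraries and 1374 to 1635 CPM in naive libraries. Dab2, an endocytic adaptor, rose to 13.7, 19.8 and 14.7 CPM in EPL libraries, against 3.49, 5.21 and 2.94 CPM in naive libraries (2.05 ± 0.24; edgeR adjusted p = 4.29e-07), Gata4, an endoderm factor, rose to 4.02, 7.43 and 4.45 CPM in EPL libraries, against 2.40, 1.99 and 1.38 CPM in naive libraries (1.46 ± 0.26; edgeR adjusted p = 1.09e-04), and Hnf4a, a nuclear receptor of later endoderm, fell by 1.69 ± 0.18 (edgeR adjusted p = 1.72e-07). Mesendoderm and primitive streak markers counted 1 higher and 3 lower of 15, and summed to 10.1 to 12.44 CPM in EPL libraries and 12.3 to 13.57 CPM in naive libraries. Neurectoderm markers counted 5 higher and 4 lower of 15, and summed to 224.4 to 248 CPM in EPL libraries and 301.1 to 331.5 CPM in naive libraries. Of the 21 markers listed, 13 were below 1 CPM in all 6 libraries. Nes, which encodes nestin, rose to 84.2, 79.7 and 59.8 CPM in EPL libraries, against 22, 21.7 and 21.5 CPM in naive libraries (1.77 ± 0.17), and Sox1, an early neural factor, fell to 2.33, 2.59 and 3.0 CPM in EPL libraries, against 19, 13.7 and 13 CPM in naive libraries (-2.51 ± 0.19; edgeR adjusted p of at most 3.13e-08).

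Trophoblast markers counted 1 higher and 6 lower of 15, their sum was 84.87 to 89.03 CPM in EPL libraries and 122.5 to 134.5 CPM in naive libraries, and Elf5, Tpbpa and Prl3d1 were at 0 in all 6. Fibroblast and feeder markers counted 6 higher and 1 lower of 19, the lower one being lost when any 1 of 5 libraries was left out. Their sum was 68.97 to 72.55 CPM in EPL libraries and 40.93 to 42.5 CPM in naive libraries, with 10 of the 19 below 1 CPM in every library and Postn and Fap at 0 in all 6. Mmp2, a gelatinase, made up much of the sum, at 35.0, 31.6 and 33.6 CPM in EPL libraries, against 15.4, 16.5 and 13.7 CPM in naive libraries (1.14 ± 0.13; edgeR adjusted p = 5.02e-07), while Col1a1 was not called, at 1.75, 1.72 and 1.16 CPM in EPL libraries, against 1.43, 1.22 and 1.11 CPM in naive libraries (edgeR adjusted p = 0.439). The part of such cells in the matrix and collagen values was not tested.

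In the stress lists most calls were lower, and among p53 targets most were higher. Antioxidant genes of NRF2 counted 4 higher (14.8%) and 11 lower (40.7%) of 27. Nqo1, a quinone reductase, fell to 20.2, 18 and 23.8 CPM in EPL libraries, against 72.7, 66.2 and 67.7 CPM in naive libraries (-1.73 ± 0.11; edgeR adjusted p = 4.21e-11), and Gpx1, a glutathione peroxidase, fell to 184, 174 and 181 CPM in EPL libraries, against 446, 599 and 461 CPM in naive libraries (-1.48 ± 0.15; edgeR adjusted p = 8.54e-08). Genes of the unfolded protein and heat shock responses counted 5 higher (17.9%) and 16 lower (57.1%) of 28, with a median of -0.24. Hspb1, a small heat shock protein (-1.09 ± 0.10), Hspa8, the constitutive HSP70 (-0.57 ± 0.07) and Xbp1, the factor of the unfolded protein response (-0.75 ± 0.08), fell (edgeR adjusted p of at most 3.55e-07). Targets of p53 counted 12 higher (54.55%) and 4 lower (18.2%) of 22. The count of lower genes was 2 when EPL replicate 3, naive replicate 1 or naive replicate 2 was left out. Mdm2, the ubiquitin ligase of p53, rose to 203, 203 and 217 CPM in EPL libraries, against 149, 137 and 142 CPM in naive libraries (0.54 ± 0.11; edgeR adjusted p = 3.67e-04), and Plk2 (0.92 ± 0.12) and Trp53inp1 (0.86 ± 0.13) rose with edgeR adjusted p of at most 1.50e-05.

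Cell cycle regulators counted 5 higher and 9 lower of 31, and 3 were higher without naive replicate 1. Of 8 cyclins, 4 were called lower and 0 higher, and Ccnd2, a D-type cyclin, fell to 4.93, 5.6 and 4.32 CPM in EPL libraries, against 24.2, 18.6 and 24.2 CPM in naive libraries (-2.18 ± 0.23; edgeR adjusted p = 1.42e-07). Interferon response genes counted 7 higher and 6 lower of 23. Ifitm3, an antiviral membrane protein, fell to 50.3, 45.2 and 50.7 CPM in EPL libraries, against 171, 221 and 170.3 CPM in naive libraries (-1.94 ± 0.11), and Irf1, a transcription factor of the response, rose to 58.1, 52.2 and 56.9 CPM in EPL libraries, against 15.6, 20.3 and 18.5 CPM in naive libraries (1.62 ± 0.11; edgeR adjusted p of at most 8.68e-11). Lysosome genes counted 10 higher and 3 lower of 22, with 1 lower without EPL replicate 1 or naive replicate 2, led by the cathepsins Ctsc (1.81 ± 0.17) and Ctsl (1.02 ± 0.13; edgeR adjusted p of at most 1.37e-06).

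The same contrast was then set against line A2, which shares no library with it. In A2, 5440 genes (32.8%) were called, 2778 higher (16.8%) and 2662 lower (16.1%). Of the genes called in D3, 46.7% were called in the same direction in A2, and of those called in A2, 63.9% were called in the same direction in D3. Across the 16575 genes, which are not independent replicates, the log2 changes of the lines had a Pearson r of 0.566. The difference between the lines was tested as an interaction and called in 2106 genes (12.7%), 1123 more positive in D3 (6.78%) and 983 more negative (5.93%). In 1525 of these the D3 change was the larger in size and in 581 the A2 change was. The count of 1123 depended on single libraries and was 724 without D3 EPL replicate 2, 705 without A2 EPL replicate 3 and 714 without A2 naive replicate 3.

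**Figure D4:**
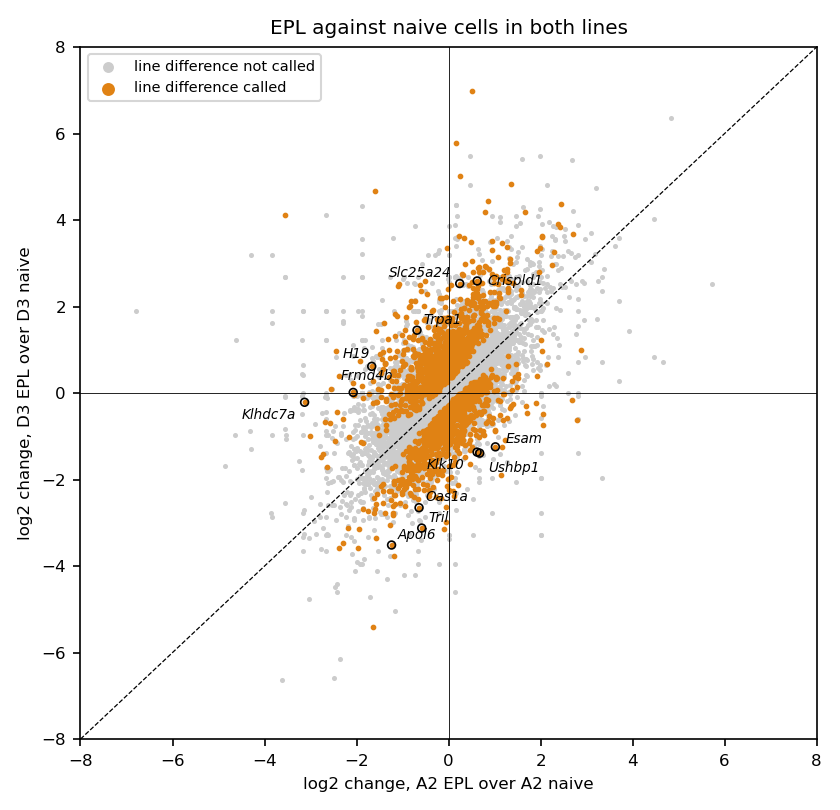
The log2 change of EPL over naive cells in D3 (vertical) against that in A2 (horizontal) for the 16575 tested genes, orange where the difference between the lines was called and grey where it was not, with a dashed line at equal changes. The 12 genes with the largest called differences at 5 CPM or more are circled and named. Those above the dashed line, Klhdc7a, Frmd4b, H19, Trpa1, Slc25a24 and Crispld1, have the more positive change in D3, and those below it, Apol6, Tril, Oas1a, Klk10, Ushbp1 and Esam, the more negative one.

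The naive list counted 1 higher and 17 lower of 24 in A2. The cholesterol list counted 19 higher and 1 lower of 28 in A2, and the line difference was called in 2 of its 28 members. The naive list held 8 such members of 24, all with the more negative value in D3, against 12.7% of all genes with a called difference. Its members were chosen with earlier results of these data known, so this share cannot be read against that background. Zfp42 changed by -1.10 in D3 and -0.26 ± 0.09 in A2, where it stood at 860.3, 859.8 and 905 CPM in A2 EPL libraries, against 988, 1057 and 1102 CPM in A2 naive libraries (difference -0.84 ± 0.13; edgeR adjusted p = 1.72e-04). Spp1 changed by -2.04 in D3 and -0.90 ± 0.07 in A2 (difference -1.14 ± 0.10; edgeR adjusted p = 2.65e-07). Klf4 changed by -2.10 in D3 and -1.76 ± 0.10 in A2, and this difference was not called (edgeR adjusted p = 0.141). Tbx3 changed by -2.57 in D3 and -2.80 ± 0.08 in A2, and Tfcp2l1 by -1.13 and -1.31 ± 0.13. Their values were thus slightly more negative in A2, with differences that were not called (edgeR adjusted p = 0.201 and 0.596). Fgf5 changed by 4.73 and 3.21 ± 0.36, also with a difference that was not called (1.52 ± 0.55; edgeR adjusted p = 0.0737).

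In the ATF4 list, the A2 counts were smaller. In A2, 2 of its 29 members were called higher and 10 lower, with a median of -0.03. The line difference was called in 14 of the 29 members, against 12.7% of all genes. The list was chosen with earlier results of these data known, so this share cannot be read against that background. Atf4 stood at 249.8, 236 and 248 CPM in A2 EPL libraries, against 255, 298 and 273 CPM in A2 naive libraries, a log2 change of -0.17 ± 0.07, and differed between the lines by -0.55 ± 0.10 (edgeR adjusted p = 8.53e-04). Asns stood at 192, 166 and 180.4 CPM in A2 EPL libraries, against 273, 305 and 269.5 CPM in A2 naive libraries, a change of -0.66 ± 0.08, with a difference of -0.49 ± 0.11 (edgeR adjusted p = 0.0048). Of these 14 differences, 13 were more negative in D3 and the exception was Ddit4 (0.72 ± 0.16; edgeR adjusted p = 0.00358). Cytosolic synthetases counted 2 higher and 8 lower of 20 in A2. Slc38a2 rose in A2 as in D3, by 0.84 ± 0.10, with a difference of -0.02 ± 0.14 that was not called (edgeR adjusted p = 0.961).

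**Figure D5:**
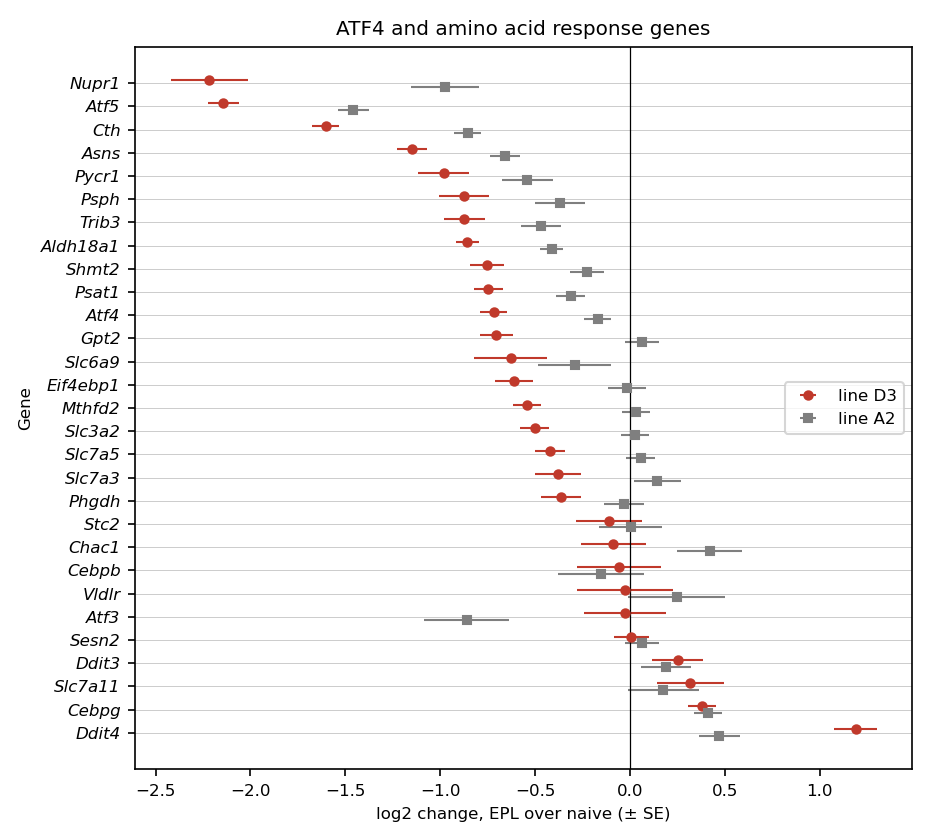
The log2 change of EPL over naive cells for the 29 tested ATF4 and amino acid response genes, with its standard error, in line D3 (red circles) and line A2 (grey squares), ordered by the D3 value. From Nupr1 to Phgdh the D3 points lie left of the A2 points, and Ddit4 lies to the right of 0 in both lines, further in D3.

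The p53 target list had other counts in A2. There it counted 2 higher and 9 lower of 22, against 16.8% higher and 16.1% lower over all genes in A2. The line difference was called in 8 of the 22, each more positive in D3, against 6.78% of all genes. The list was chosen with earlier results of these data known, so this share cannot be read against that background. Ccng1, which encodes cyclin G1, stood at 371, 363 and 358 CPM in EPL libraries, against 269.5, 229.6 and 285 CPM in naive libraries in D3 (0.48 ± 0.11; edgeR adjusted p = 0.00117) and at 326, 330.2 and 326 CPM in A2 EPL libraries, against 418, 418 and 437 CPM in A2 naive libraries (-0.37 ± 0.11), a difference of 0.85 ± 0.15 (edgeR adjusted p = 8.23e-04). Pmaip1, which encodes the BH3 protein NOXA, differed by 1.36 ± 0.13 (edgeR adjusted p = 6.46e-07). Dnmt3l fell in D3 and was at 546, 589 and 532 CPM in A2 EPL libraries, against 315, 324 and 323 CPM in A2 naive libraries (0.79 ± 0.09), a difference of -1.03 ± 0.12 (edgeR adjusted p = 1.04e-05). Vim, lower in D3 EPL cells, was at 205, 254 and 275 CPM in A2 EPL libraries, against 175, 182 and 173 CPM in A2 naive libraries (0.47 ± 0.14; difference -1.42 ± 0.20, edgeR adjusted p = 5.30e-05). Over all genes, 186 were called in both lines in opposite directions.

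Among genes at 5 CPM or more in a D3 or A2 group, the largest differences with the more positive D3 value were in Klhdc7a (2.92 ± 0.34), Slc25a24, a mitochondrial ATP-Mg carrier (2.29 ± 0.44), the imprinted RNA H19 (2.29 ± 0.32), Trpa1, an ion channel (2.14 ± 0.23), Frmd4b (2.09 ± 0.21) and Crispld1 (1.97 ± 0.33), with edgeR adjusted p of at most 0.00138. Klhdc7a and Frmd4b were not called in D3, with changes of -0.21 ± 0.26 and 0.01 ± 0.15, and fell in A2, by 3.13 ± 0.18 and 2.07 ± 0.14. H19, whose exons hold Mir675, stood at 11.4, 12.9 and 11.1 CPM in EPL libraries, against 8.12, 7.54 and 7.42 CPM in naive libraries in D3 and at 2.01, 2.74 and 2.11 CPM in A2 EPL libraries, against 7.32, 6.03 and 8.58 CPM in A2 naive libraries. Slc25a24 stood at 5.25, 6.03 and 5.31 CPM in EPL libraries, against 0.743, 0.997 and 1.11 CPM in naive libraries in D3 and at 1.83, 1.68 and 1.33 CPM in A2 EPL libraries, against 1.90, 1.13 and 1.12 CPM in A2 naive libraries. H19 thus rose in D3 (edgeR adjusted p = 0.0151, or 0.0693 without EPL replicate 2) and was lower in EPL than in naive libraries of A2, while Slc25a24 rose in D3 and its A2 groups overlapped.

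At the same level limit, the largest differences with the more negative D3 value were in Tril (-2.54 ± 0.36), Apol6 (-2.27 ± 0.32), Esam, an endothelial adhesion molecule (-2.26 ± 0.27), Ushbp1 (-2.07 ± 0.24), Oas1a, an interferon-induced synthetase with close paralogs (-2.01 ± 0.24) and Klk10, a kallikrein (-1.99 ± 0.23), with edgeR adjusted p of at most 7.58e-05. Tril stood at 0.584, 0.700 and 0.599 CPM in EPL libraries, against 6.86, 4.6 and 5.10 CPM in naive libraries in D3 and at 1.06, 1.84 and 1.09 CPM in A2 EPL libraries, against 2.02, 1.76 and 2.24 CPM in A2 naive libraries. Esam stood at 3.05, 3.07 and 2.65 CPM in EPL libraries, against 6.86, 7.92 and 5.93 CPM in naive libraries in D3 and at 4.07, 5.81 and 6.4 CPM in A2 EPL libraries, against 2.02, 2.69 and 3.27 CPM in A2 naive libraries. Esam was lower in EPL libraries of D3 and higher in those of A2, and the A2 groups of Tril overlapped.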

How the data were processed

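RNA was sequenced from mouse embryonic stem cell libraries prepared with a kit that does not mark strand. The authors deposited 1 table of whole-number read counts per gene for 39396 genes and 21 libraries. HISAT2, SAMtools, featureCounts and build GRCm38 are named in the submitters' processing notes, with versions and settings not given in the sources used here. All 39396 identifiers matched GENCODE M21.

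The counts were tested with edgeR 4.0.16 in R 4.3.3 (filterByExpr keeping genes with 10 counts in enough libraries and 15 in total; TMM scaling; 1 mean per group; quasi-likelihood F test; Benjamini-Hochberg adjustment), with limma 3.58.1 as its base. The SE is the log2 change divided by the square root of F. The line difference was the interaction of line and state. The fit was tested on simulated data. Library totals of 15320599 to 23490527 counts limit the precision of genes at low counts. Alternatives were RLE or total-count scaling, no or a stricter filter, DESeq2 1.42.0, fewer groups in the fit, a replicate block and leaving out each library.

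The gene lists and tests were chosen with earlier results of these data known. Named genes were the 12 largest rises and 12 largest falls at 5 CPM or more with no overlap, up to 6 called members of each list by size, the 6 largest line differences in each direction, the 5 largest CPM differences in each direction, and a short set of stem cell, proline and LIF genes. A further 31 genes were chosen after their values had been seen, among them Lifr, Trib3, Cdh1, Vim and Mdm2. Results for some genes that meet the rule are not reported here. Promoter windows came from RefSeq (GRCm38.p6).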

Additional observations from a re-analysis of the deposited data

Results flagged for a closer look

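Of the 195 tested genes named above, 106 had a change of EPL over naive cells that differed between lines D3 and A2 by edgeR's interaction test at an adjusted p below 0.05, against 12.7% of all tested genes. The share cannot be read against that background, because the genes were named mostly for large changes in D3. The difference, D3 minus A2 on the log2 scale, was positive in 46 and negative in 60, and in 23 the changes of the lines had opposite signs. Why the lines differed was not tested.

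Among naive and LIF-responsive genes the differences were -0.47 in Nanog, -0.84 in Zfp42, -1.04 in Nr0b1, -0.88 in Nr5a2 and -0.89 in Klf2. They were -1.33 in Tcl1, -0.67 in Eras, -1.14 in Spp1, -0.75 in Gbx2, -0.94 in Bcl3 and -0.37 in Ccnd3. Epiblast and adhesion genes had differences of 0.69 in Otx2, 0.82 in Sall2, 0.72 in Pim2, 0.64 in Cldn6, 0.73 in Sfrp2, -2.34 in Evx1, -1.42 in Vim and -1.65 in Itga9. Of the genes with the largest D3 rises, the values were 1.94 in Spon1, 1.54 in Kif1a, 1.42 in Zfp608, 0.99 in Mmp25, 1.60 in Calcr, 1.58 in Mal2 and 1.36 in Rasef. For those with the largest falls they were -1.20 in Inhbb, -1.60 in Adgrd1, -1.20 in Mapt, -2.27 in Apol6, -1.16 in Myo1f, -2.54 in Tril and -0.92 in Gsta3.

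Signalling genes differed by -1.65 in Fgf17, 0.30 in Dusp6, 1.19 in Jun, -0.90 in Bmp4, -1.08 in Id1, -0.93 in Id3 and 0.61 in Skil. Wnt and Notch genes differed by -1.67 in Sp5, -1.40 in Notum, 1.18 in Dll3, 0.70 in Jag2, 0.59 in Dll1, 1.17 in Notch3 and -1.49 in Notch4. In the amino acid response the values were -0.55 in Atf4, -0.68 in Atf5, -1.24 in Nupr1, -0.49 in Asns, -0.75 in Cth, -0.48 in Slc7a5, -0.53 in Slc3a2 and 0.72 in Ddit4. Synthetases gave -0.40 in Cars, -0.60 in Sars, -0.39 in Aars, -0.42 in Yars and -0.29 in Gars. Proline and serine genes gave -0.44 in Aldh18a1, 0.44 in Oat, 0.65 in Slc6a15, 1.10 in Slc36a4, -0.43 in Psat1 and -0.53 in Shmt2. Other transporters and hydroxylases gave -0.76 in Slc7a1, 0.90 in Slc7a2, 0.79 in Slc1a3, 0.99 in P4ha2 and -1.05 in P3h4.

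Chromatin, lipid and glycolysis genes differed by -1.03 in Dnmt3l, -1.25 in Epop, -0.55 in Ebp, 0.78 in Fads2, -0.58 in Hk2 and -0.87 in Eno3. Germline, imprinted and lineage genes differed by 1.5 in Sycp3, 1.10 in Nnat, 1.14 in Dab2, 1.17 in Gata4, 0.79 in Mmp2 and 1.5 in Col1a1. Stress genes differed by -0.76 in Nqo1, -0.72 in Gpx1, -0.84 in Hspb1, -0.49 in Hspa8 and -0.51 in Xbp1. Targets of p53 differed by 0.61 in Mdm2, 0.92 in Plk2, 0.78 in Trp53inp1, 0.85 in Ccng1 and 1.36 in Pmaip1, and cell cycle, interferon and lysosome genes by -1.25 in Ccnd2, 0.64 in Irf1 and 0.97 in Ctsc. The genes chosen for the size of the line difference gave 2.92 in Klhdc7a, 2.29 in Slc25a24, 2.29 in H19, 2.14 in Trpa1, 2.09 in Frmd4b and 1.97 in Crispld1 on the positive side, and -2.26 in Esam, -2.07 in Ushbp1, -2.01 in Oas1a and -1.99 in Klk10 on the negative side.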

How the results depend on the processing

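The count of genes called between D3 EPL and naive cells, 7439, ranged from 5956 (only these groups in the fit) to 7448 (library totals) over the other fits, with 7364 by DESeq2, and from 6292 to 7072 when 1 library was left out. The line difference, 2106 genes, ranged from 1861 to 2437 over the other fits and from 1511 to 2270 without 1 library, and its positive part from 705 to 1204. With a replicate block the counts were 7166 and 1861. The series design speaks of paired samples without saying what is paired, and replicate numbers were not taken as pairs: same-numbered deviations correlated at 0.103, -0.0969 and -0.159, and the highest correlation, 0.291, was between EPL replicate 3 and naive replicate 2. Of the list counts under the alternatives, 1088 stayed within 1.5 times the reported one and 56 did not. For single genes in D3, 3932 values kept direction and call, 117 lost the call, 1 gained it (Fgf4, in the fit of only the compared groups) and 7 changed sign. The sign changes were in genes near 0: Frmd4b was -0.00873 with RLE scaling, -0.0100 with DESeq2, and from -0.126 (without naive replicate 2) to 0.165 (without naive replicate 3) when 1 library was left out, below 0 also without EPL replicate 1 (-0.0138), EPL replicate 2 (-0.0955) or naive replicate 1 (-0.00606), and Prodh ranged from -0.131 (without EPL replicate 1) to 0.00336 (without EPL replicate 2). The cause was not tested. With 3 libraries per group, depth limits what can be said of genes near 0 counts.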
